A study of Mus musculus with 96 samples.

Results

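Astrocyte genes were followed across regions, strains and treatments of the mouse brain: Agt, Itih3, Slc1a2, Slc1a3, Gfap, Aqp4, Gja1, Gjb6, Aldh1l1 and S100b. Each was read from the transcript cluster (the probes that an array pools into 1 value for a gene) that carries its symbol alone. All 10 genes had 1 such cluster, of 28310 clusters on the arrays and 18810 genes with a cluster of their own. All 10 were well expressed, with mean log2 intensities above those of 76.8% (Aldh1l1) to 99.4% (Slc1a2) of clusters.

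Brains came from 16 adult male mice of 2 inbred strains, NOD/ShiLtJ and C57BL/6J, with 8 mice per strain. NOD/ShiLtJ is best known as a model of autoimmune diabetes, and C57BL/6J is the common laboratory strain. In each strain 4 mice received a single intraperitoneal injection of clozapine, an antipsychotic drug, and 4 received vehicle; all were killed 3.0 hours after injection. The cerebellum was removed at dissection, 1 hemisphere was split into hindbrain and forebrain, and the other was kept whole ("whole brain"), so each mouse gave 3 samples. No mouse carried a transgene or an induced mutation. RNA from all 48 samples was hybridized on 2 array formats, 1.1ST and 1.0ST, and the values below are log2 intensities from 1.1ST unless 1.0ST is named.

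Astrocytes are the glial cells that surround synapses and blood vessels. They take up glutamate after it has been released, buffer potassium and water through channels on their vessel-facing endfeet, and are joined to each other by gap junctions into a network. They also secrete proteins, supply neurons with metabolites, and respond to injury with more glial fibrillary acidic protein. Astrocytes of the brainstem and of the telencephalon are known to differ in the genes they use. In bulk tissue such as this, fewer cells of a type and less RNA per cell cannot be told apart.

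Promoters are shown for the genes on which the results turn: Agt and Itih3, with the highest hindbrain to forebrain ratios of the 10 genes, Gfap, with a strain difference in every region, and Slc1a3, which was lower in hindbrain. The sequences are RefSeq's for the build GRCm38.p6 and run 5′ to 3′ from 250 bases before the annotated start to 50 bases after it. All 4 lie on the minus strand, at chr8:124569657-124569956 (Agt), chr14:30923538-30923837 (Itih3), chr11:102897151-102897450 (Gfap) and chr15:8710758-8711057 (Slc1a3). Capitals mark matches, on either strand, to the half-site TTGGC of nuclear factor I, to the STAT site TTCNNNGAA and to the TATA box TATAAA; no matches overlapped.
Agt: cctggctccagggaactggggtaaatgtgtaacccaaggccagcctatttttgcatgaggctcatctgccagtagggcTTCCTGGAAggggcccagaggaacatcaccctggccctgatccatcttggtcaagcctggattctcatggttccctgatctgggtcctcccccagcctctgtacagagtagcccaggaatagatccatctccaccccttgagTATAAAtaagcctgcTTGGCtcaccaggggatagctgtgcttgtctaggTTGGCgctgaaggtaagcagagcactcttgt
Itih3: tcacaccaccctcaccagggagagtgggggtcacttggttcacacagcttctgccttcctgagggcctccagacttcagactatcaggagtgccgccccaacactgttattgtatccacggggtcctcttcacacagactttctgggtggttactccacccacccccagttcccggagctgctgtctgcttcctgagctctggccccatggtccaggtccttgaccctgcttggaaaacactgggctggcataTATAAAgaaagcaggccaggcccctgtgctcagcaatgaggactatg
Gfap: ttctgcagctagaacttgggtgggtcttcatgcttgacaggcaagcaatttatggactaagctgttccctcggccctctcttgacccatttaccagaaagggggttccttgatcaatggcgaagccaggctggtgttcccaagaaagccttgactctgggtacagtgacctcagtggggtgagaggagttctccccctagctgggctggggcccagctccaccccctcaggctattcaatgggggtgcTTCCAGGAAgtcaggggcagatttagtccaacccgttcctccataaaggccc
Slc1a3: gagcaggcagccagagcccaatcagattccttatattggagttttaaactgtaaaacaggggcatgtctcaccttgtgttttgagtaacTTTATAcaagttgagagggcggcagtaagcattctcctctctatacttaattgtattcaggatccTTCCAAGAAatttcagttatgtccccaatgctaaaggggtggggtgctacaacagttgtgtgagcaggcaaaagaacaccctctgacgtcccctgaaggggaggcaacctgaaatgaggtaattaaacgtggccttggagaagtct
Promoters were matched for 9 of the 10 genes. The STAT letters were in 3 of the 9 (Agt, Gfap and Slc1a3), against 8.47% of all 27025 promoters of this length. TATAAA was in 3 of the 9 (Agt, Itih3 and Slc1a3), against 14.2% of all promoters, and it began 30 bases before the start in Agt, 161 bases before it in Slc1a3 and 3 bases after it in Itih3. The half-site TTGGC was in 3 of the 9 (Agt, Slc1a2 and S100b), against 47.0% of all promoters. Agt held all 3 motifs, and the Gfap window held its STAT match across the start itself. These matches are a description of letters and not of bound sites.

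Region was the main axis along which most of these genes varied. In hindbrain, 8 of the 10 genes were higher than in forebrain and both glutamate transporters, Slc1a2 and Slc1a3, were lower (limma, FDR below 0.05 for all 10). Of all 28310 clusters, 27.5% were called higher and 19.7% lower in this comparison. The median difference of the 10 genes was 0.49 on the log2 scale, against 0.02 over all clusters. The values of the 16 hindbrains lay wholly above those of the 16 forebrains for 6 genes (Agt, Itih3, Aqp4, Gja1, Gjb6 and S100b) and wholly below them for Slc1a2; for 9.04% of all clusters the groups did not overlap in one direction or the other. Each difference is given both as the mean over mice of the 2 deposited values and as the fitted value, which includes surrogate variables (covariates computed from the expression values themselves) and is smaller for most of these genes. By fitted values, Gfap and Aldh1l1 differed more between strains than between hindbrain and forebrain. NOD/ShiLtJ minus C57BL/6J was 0.50 to 0.66 for Gfap and -0.22 to -0.17 for Aldh1l1. Their fitted hindbrain minus forebrain differences were 0.45 and 0.13. As means over mice of the deposited values these regional differences were larger, 0.62 for Gfap and 0.24 for Aldh1l1. The order of strain and region is therefore stated for the fit alone.

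**Figure D1:**
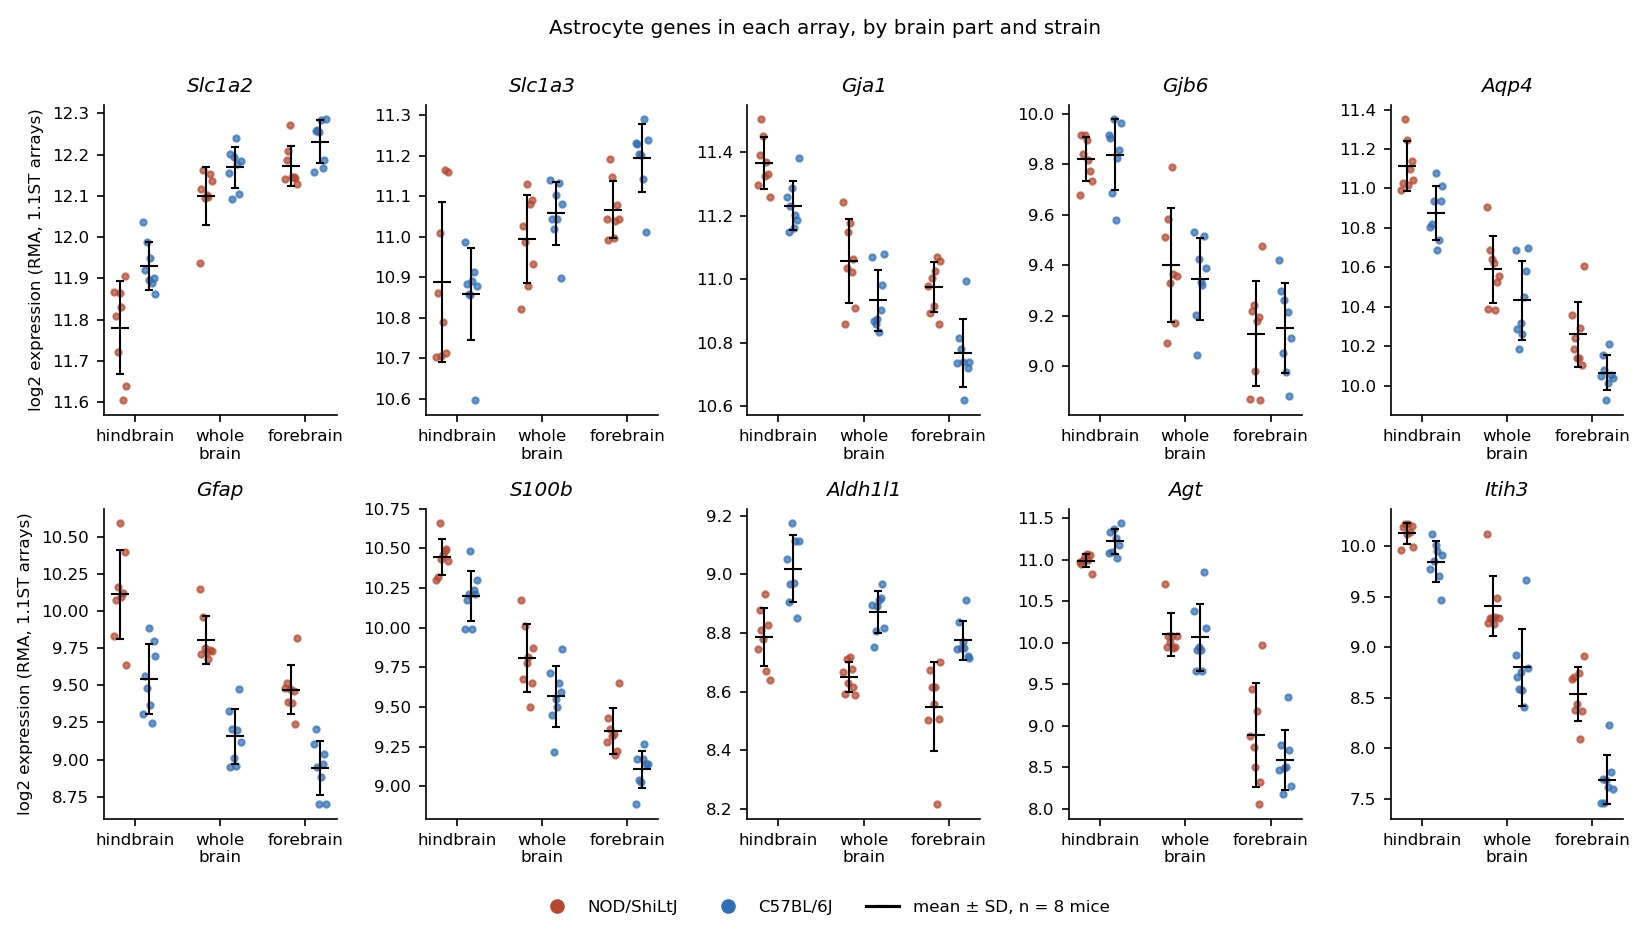
Log2 intensity (1.1ST) of the 10 astrocyte genes in hindbrain, whole brain and forebrain, each point 1 array of 16 mice, coloured by strain, with black marks for the mean ± SD of the 8 mice of a strain. Agt has its 16 hindbrains between 10.83 and 11.45, all above its forebrains, while Slc1a2 has its hindbrains between 11.60 and 12.04, all below.

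The secreted proteins differed most. Agt, which encodes angiotensinogen, the precursor of the angiotensin peptides and in brain a product of astrocytes, had a lowest value of 10.83, a median of 11.06 and a highest value of 11.45 in hindbrain, against 8.05, 8.61 and 9.97 in forebrain. The hindbrains were close together (SD 0.17), whereas the forebrains were spread widely (SD 0.52, n = 16 each). Agt was higher in hindbrain in 16 of 16 mice, by 2.37 ± 0.62 (SD) within a mouse, a 5.16-fold difference; the fit gave 1.89 ± 0.14 (SE), 3.72-fold, with an FDR of 1.5e-15. Itih3, a heavy chain of the inter-alpha-trypsin inhibitors, which attach to the hyaluronan of the extracellular matrix, had 9.47, 10.00 and 10.22 in hindbrain, against 7.45, 8.16 and 8.92 in forebrain (lowest, median and highest). Every hindbrain was again above every forebrain. The difference within a mouse was 1.88 ± 0.44 (SD, 16 of 16 mice) and the fitted value was 1.57 ± 0.12 (SE), 2.96-fold, with an FDR of 3.3e-15.

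S100b, a calcium-binding protein of astrocytes that some oligodendrocytes also make, had 9.99, 10.31 and 10.66 in hindbrain, against 8.89, 9.21 and 9.65 in forebrain. The groups did not overlap, and all 16 mice had more in hindbrain, by 1.09 ± 0.18 (SD); the fit gave 0.81 ± 0.05 (SE, FDR 1.37e-17). Aqp4, the water channel of the endfeet, had 10.69, 11.01 and 11.35 in hindbrain, against 9.93, 10.14 and 10.61 in forebrain. This too was a difference in every mouse, of 0.83 ± 0.21 (SD), with a fitted value of 0.61 ± 0.05 (SE, FDR 4.05e-13).

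The gap junction genes Gja1 (connexin 43) and Gjb6 (connexin 30), which couple astrocytes to one another, were both higher in hindbrain in 16 of 16 mice. Gja1 had 11.15, 11.29 and 11.51 in hindbrain, against 10.62, 10.88 and 11.07 in forebrain. Its difference was 0.43 ± 0.13 (SD) within a mouse and 0.35 ± 0.04 (SE, FDR 2.1e-09) in the fit. Gjb6 had 9.58, 9.85 and 9.98 in hindbrain, against 8.86, 9.19 and 9.48 in forebrain. Its lowest hindbrain was just above its highest forebrain, and its difference was 0.69 ± 0.18 (SD) within a mouse and 0.54 ± 0.07 (SE, FDR 3.19e-09) in the fit.

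Gfap and Aldh1l1 overlapped between the regions. Gfap, the intermediate filament protein by which astrocytes are usually stained, had 9.25, 9.82 and 10.60 in hindbrain, against 8.70, 9.22 and 9.82 in forebrain. It was higher in hindbrain in 15 of 16 mice, by 0.62 ± 0.38 (SD), and the fitted value was 0.45 ± 0.09 (SE, FDR 2.23e-05). On 1.0ST the mean within a mouse was nearly the same, 0.60 ± 0.31 (SD, 15 of 16 mice), but the fit with surrogate variables gave 0.05 (FDR 0.489), and without them 0.60 (FDR 3.44e-13). Aldh1l1, a folate enzyme used as a marker of all astrocytes, had 8.64, 8.89 and 9.18 in hindbrain, against 8.22, 8.71 and 8.91 in forebrain. Its difference was small, 0.24 ± 0.13 (SD, 15 of 16 mice) within a mouse and 0.13 ± 0.03 (SE, FDR 0.000979) in the fit, and on 1.0ST the fit gave 0.10 with an FDR of 0.117.

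The 2 genes that were lower in hindbrain are the transporters that clear glutamate. Slc1a2 (GLT-1) had 11.60, 11.88 and 12.04 in hindbrain, against 12.13, 12.19 and 12.29 in forebrain. Every hindbrain was below every forebrain, and the difference was -0.35 ± 0.11 (SD, lower in 16 of 16 mice) within a mouse and -0.28 ± 0.03 (SE, FDR 9.8e-11) in the fit, a 1.22-fold difference. Slc1a3 (GLAST) had 10.60, 10.87 and 11.17 in hindbrain, against 10.99, 11.15 and 11.29 in forebrain. The groups overlapped, and Slc1a3 was lower in hindbrain in 14 of 16 mice, by 0.26 ± 0.17 (SD) on average, with a fitted difference of -0.27 ± 0.04 (SE, FDR 7.42e-08).

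**Figure D2:**
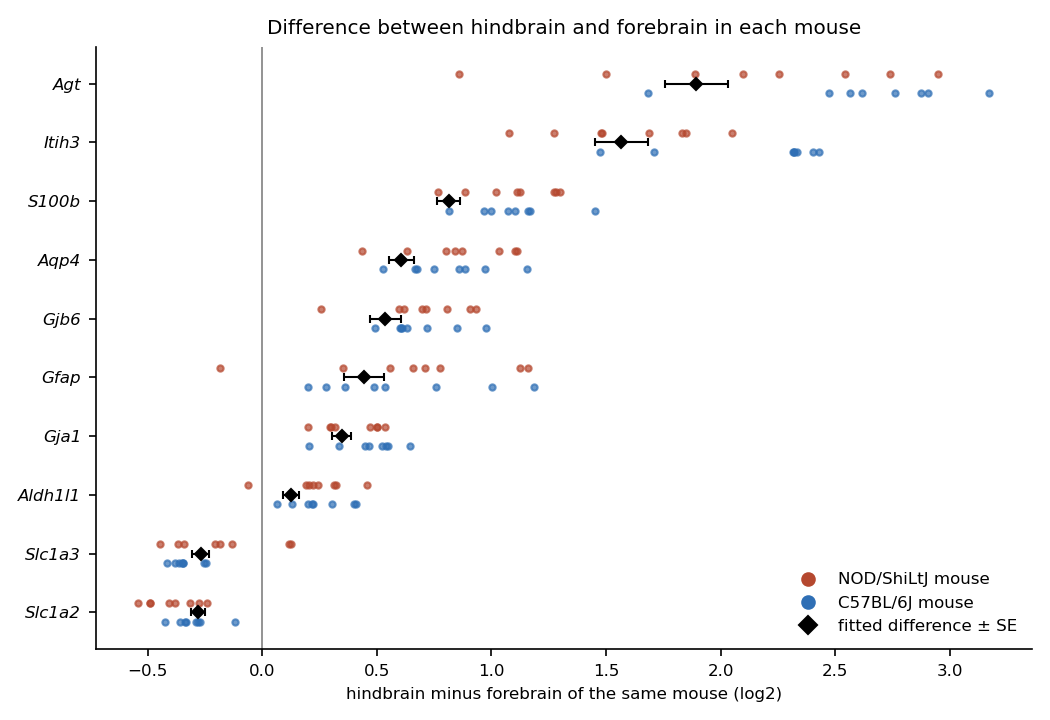
Hindbrain minus forebrain (log2, 1.1ST) for each astrocyte gene: points are the 16 mice, and the fitted value with its SE is drawn beside them. Only Slc1a2 and Slc1a3 have fitted values below 0, at -0.28 and -0.27, and Agt has the highest at 1.89.

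Both exceptions for Slc1a3 were among the 4 hindbrains that carried the most cerebellar transcripts. Gabra6, the GABA-A receptor subunit of cerebellar granule cells (chosen after its values were seen), read 9.38 to 10.82 in the hindbrains of mice BB701 (C57BL/6J) and DD658, DD676 and DD678 (NOD/ShiLtJ), all given clozapine. It read 3.94 to 7.10 in the other 12 hindbrains. The summed intensity of 13 markers of Bergmann glia and cerebellar neurons was 11613 to 19034 in those 4 hindbrains and 5395 to 8205 in the other 12. On 1.0ST the same 4 hindbrains read 10.41 to 11.72 for Gabra6, and the other 12 read 5.68 to 8.20. Gabra6 was also raised, to a lesser degree, in some other arrays on 1.1ST. It read 7.71, 7.54, 7.45 and 6.84 in the whole brains of BB708, DD675, DD657 and DD658, against 4.07 to 5.17 in the others. The highest of the other 12 hindbrains was that of BB703, at 7.10, and the highest forebrain was that of DD678, at 6.03.

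Slc1a3 is a gene that Bergmann glia, the astrocytes of the cerebellar cortex, express strongly. Its hindbrain minus forebrain difference was -0.35 in BB701, -0.18 in DD658, 0.13 in DD676 and 0.12 in DD678, and lay between -0.44 and -0.13 in the other 12 mice. Without these 4 hindbrain arrays (an alternative added after the values were seen) the fitted Slc1a3 difference was -0.28, and the 10 genes kept 8 calls higher and 2 lower. The part of cerebellar tissue in the result was not tested.

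**Figure D3:**
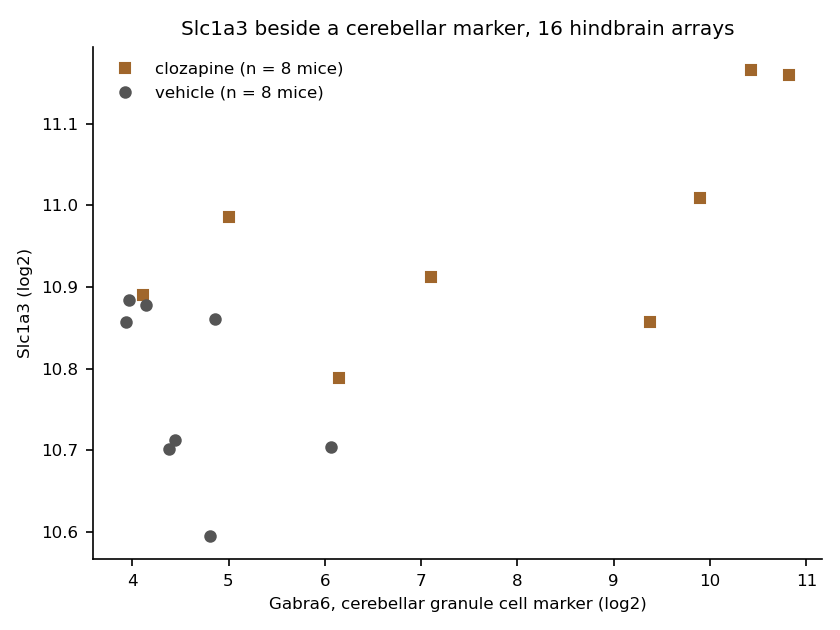
Slc1a3 against Gabra6 (both log2 intensity, 1.1ST) in the 16 hindbrain arrays, 8 from clozapine and 8 from vehicle mice. The 4 arrays with Gabra6 above 9 all come from clozapine mice and read 10.86 to 11.17 for Slc1a3.

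Whole brain lay between the regions. By fitted log2 differences it was nearer to hindbrain for Agt and Itih3, and nearer to forebrain for the other genes. Agt was 1.08 above forebrain and 0.81 below hindbrain, and Itih3 was 0.83 above and 0.73 below. Against forebrain, 7 of the 10 genes were higher in whole brain and 1, Slc1a3, was lower, against 8.48% of all clusters called higher and 5.89% lower; the median difference was 0.17 for the 10 genes and 0.00 for all clusters. Agt had 9.65, 9.98 and 10.85 in whole brain, against 8.05, 8.61 and 9.97 in forebrain, with a fitted difference of 1.08 ± 0.10 (SE, FDR 2.67e-10). Itih3 had 8.40, 9.24 and 10.12 in whole brain, against 7.45, 8.16 and 8.92 in forebrain, with a fitted difference of 0.83 ± 0.09 (SE, FDR 2.46e-09). Both were higher in whole brain in 16 of 16 mice, although their groups overlapped.

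S100b was higher by 0.34 ± 0.04 (SE, FDR 8.44e-09), Aqp4 by 0.26 ± 0.04 (FDR 7.14e-06) and Gjb6 by 0.16 ± 0.05 (FDR 0.017). Gfap, at 0.18 ± 0.07 (SE), and Gja1, at 0.10 ± 0.03, passed the threshold narrowly, with FDRs of 0.0435 and 0.0262. With the mouse as a fixed block they did not pass, at 0.15 (FDR 0.133) for Gfap and 0.09 (FDR 0.0513) for Gja1. Slc1a3 was lower by 0.10 ± 0.03 (SE, FDR 0.00931). The count of 8 was 4 on 1.0ST, and also 4 when mouse BB708, DD675 or DD676 was left out. The whole brains of BB708 and DD675 were among those with raised Gabra6 (7.71 and 7.54), and that of DD676 was not (4.13). The part of cerebellar tissue in these counts was not tested. Slc1a2 and Aldh1l1 did not pass, with differences of -0.05 ± 0.02 (SE, FDR 0.148) and 0.03 ± 0.03 (FDR 0.362).

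In hindbrain against whole brain all 10 genes passed, 8 higher and 2 lower, against 26% of all clusters called higher and 17.4% lower. The median difference was 0.31 for the 10 genes and 0.02 for all clusters. Agt was higher in hindbrain by 0.81 ± 0.11 (SE, FDR 3.73e-08) and S100b by 0.48 ± 0.04 (FDR 3.27e-13), while Slc1a2 was lower by 0.24 ± 0.02 (FDR 7.46e-11). The place of a mouse's whole brain between its own forebrain and its own hindbrain was computed on linear intensities, not on log2 values. On average it stood 36.4% of the way from forebrain to hindbrain for Agt, 41.2% for Itih3, 34.4% for S100b and 35.4% for Aqp4 (SD 19.4, 32.6, 19.1 and 25.5 percentage points, n = 16). Of the whole brain arrays, that of mouse DD656 (NOD/ShiLtJ, vehicle) was the highest for Itih3 (10.12), Gfap (10.15), Aqp4 (10.91), Gja1 (11.24) and S100b (10.17), and its sum of 11 oligodendrocyte markers was 17283, inside the hindbrain range of 16115 to 20597. Its Agt value of 10.71 was below the lowest hindbrain, and the whole brain of BB707 (C57BL/6J, vehicle) read higher for Agt, at 10.85.

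Genes of the same pathways were described as lists. Most of these lists contain some of the 10 genes themselves, such as Slc1a2 and Slc1a3 in the first and Agt among the renin-angiotensin genes. Their counts and medians therefore partly repeat the results above. Of all clusters, 27.5% were called higher and 19.7% lower in hindbrain than in forebrain, and no list was tested against these shares. Among 16 genes of glutamate uptake and the glutamate-glutamine cycle, 10 were higher in hindbrain than in forebrain and 5 lower, with a median difference of 0.12. Among 6 transporters that take up GABA, glycine and other amino acids 5 were higher and 1 lower. Slc6a9, the glial glycine transporter, was higher by 1.22 ± 0.07 (SE) and Slc6a11, a GABA transporter of astrocytes, by 0.95 ± 0.07, so that the glutamate transporters among the 10 genes and these 2 transporters differed in opposite directions.

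Among 10 connexins and pannexins 8 were higher in hindbrain and none lower (median 0.33). Gjc3 was higher by 0.96 ± 0.10 (SE), Gjd2 (connexin 36, a neuronal connexin) by 0.79 ± 0.08 and Gjb2 (connexin 26) by 0.63 ± 0.13, so the connexins that were higher were not confined to astrocytes. Among 14 water, potassium and endfoot genes 9 were higher and 5 lower (median 0.23). The inward rectifier potassium channels Kcnj16 and Kcnj10 were higher by 1.08 ± 0.07 (SE) and 0.74 ± 0.06, and Atp1b2, a sodium pump subunit of astrocytes, by 0.49 ± 0.05. Aqp1, the water channel of the choroid plexus, was lower by 0.49 ± 0.11 (SE, FDR 7e-05).

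Of 7 intermediate filament and linker genes 3 were higher in hindbrain and 2 lower, with Vim (vimentin) higher by 0.46 ± 0.07 (SE) and Plec (plectin) lower by 0.39 ± 0.06. Of 8 S100 genes and their receptor 4 were higher and 1 lower, S100a16 by 0.44 ± 0.05 (SE). Of 21 genes of folate, aldehyde and energy metabolism 16 were higher and 1 lower (median 0.28). Aldh1a1, a retinaldehyde dehydrogenase, was higher by 1.73 ± 0.10 (SE), Pygm, a glycogen phosphorylase, by 1.01 ± 0.06 and Aldh1l2, the mitochondrial relative of Aldh1l1, by 0.80 ± 0.06. Gldc, of the glycine cleavage system, was lower by 1.43 ± 0.09 (SE).

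Among 10 measured genes of the renin-angiotensin system 3 were higher in hindbrain and 2 lower, near the 27.5% and 19.7% of all clusters. The median difference was -0.01. Agtr2, a receptor for angiotensin II, was higher by 1.05 ± 0.10 (SE), and Enpep, the aminopeptidase that shortens angiotensin II, by 0.52 ± 0.07. Mas1, the receptor for a shorter angiotensin peptide, was lower by 0.97 ± 0.11 (SE). Among 15 genes of the inter-alpha-trypsin inhibitors and the hyaluronan matrix 8 were higher and 1 lower. Itih2, another heavy chain, was higher by 1.07 ± 0.13 (SE), Hapln2, a hyaluronan link protein of white matter, by 1.24 ± 0.07, and Tnfaip6, the enzyme that transfers heavy chains to hyaluronan, by 0.94 ± 0.08. Ncan (neurocan), a proteoglycan that binds hyaluronan, was lower by 0.67 ± 0.05 (SE).

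Among 30 transcription factors and other genes of astrocyte identity 15 were higher in hindbrain and 7 lower (median 0.11). The secreted protein Sparc was higher by 1.14 ± 0.07 (SE), whereas Chrdl1, an astrocyte signal to synapses, was lower by 1.04 ± 0.09, Nfix by 0.78 ± 0.07 and Nfib by 0.60 ± 0.04. Of 19 genes listed as differing between astrocytes of the telencephalon and of other regions 11 were higher and 5 lower. Those most higher were Agt, Itih3 and Slc6a9, described above, with the summed intensity of the 19 at 20206 to 23655 in hindbrain and 10812 to 15503 in forebrain. Thbs4 was lower by 1.44 ± 0.10 (SE), the telencephalic factor Lhx2 by 1.41 ± 0.09 and Crym by 1.35 ± 0.20. Of 33 genes that rise in reactive astrocytes 15 were higher and 3 lower, but their median difference was only 0.11. Hspb1, a small heat shock protein, was higher by 0.89 ± 0.10 (SE) and Ptgs2, the inducible cyclooxygenase, which forebrain neurons express, was lower by 1.81 ± 0.12.

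Markers of other cell types also differed between the regions (all clusters: 27.5% higher and 19.7% lower in hindbrain). Their part in the differences of the astrocyte genes was not tested. All 11 measured oligodendrocyte markers were higher in hindbrain (median 0.82), and their summed intensity was 16115 to 20597 in hindbrain and 8662 to 12104 in forebrain. Of 10 markers of oligodendrocyte precursors 8 were higher and none lower, of 13 endothelial and mural markers 10 and none, and of 12 meningeal markers 9 and none. Markers of microglia went the other way, with 9 of 12 lower and none higher (median -0.16). Of 13 neuronal markers 6 were higher and 4 lower (median 0.05), of 12 ependymal and choroid plexus markers 2 were higher and 6 lower, and of 13 cerebellar markers 5 and 3.

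For comparison, the summed intensity of the 10 astrocyte genes was 15975 to 18332 in hindbrain and 12096 to 14609 in forebrain, with no overlap. The corresponding sum of 13 neuronal markers was 35326 to 38732 in hindbrain and 34548 to 38555 in forebrain. The neuronal sums thus overlapped almost completely. The sums of 12 ependymal and choroid plexus markers were 969 to 9527 in hindbrain and 3254 to 7241 in forebrain.

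In NOD/ShiLtJ, 4 of the 10 genes were higher and 2 lower than in C57BL/6J in forebrain (all clusters: 8.98% higher and 8.76% lower), 5 and 2 in hindbrain (11.8% and 8.69%), and 4 and 1 in whole brain (9.27% and 8.7%). In vehicle mice alone, 3 genes passed in forebrain and 3 in hindbrain. The percentages of all clusters above come from the fit to mice of both treatments. They are not a background for the counts in vehicle mice, and whether those counts exceeded one was not tested. Median differences over the 10 genes were 0.14 in forebrain, 0.08 in hindbrain and 0.07 in whole brain, against 0.01, 0.02 and 0.01 over all clusters. Gfap, Itih3, S100b and Gja1 were higher and Aldh1l1 lower in NOD/ShiLtJ in all 3 regions. Some of these calls depended on the processing. Of 30 alternatives, Gja1 lost its call in 15 in whole brain and in 8 in hindbrain, and Itih3 in 9 in hindbrain.

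Gfap had 9.64, 10.11 and 10.60 in NOD/ShiLtJ hindbrains, against 9.25, 9.53 and 9.88 in C57BL/6J hindbrains (lowest, median and highest of 8 mice). In whole brain it had 9.68, 9.74 and 10.15 in NOD/ShiLtJ, against 8.95, 9.16 and 9.48 in C57BL/6J. In forebrain it had 9.24, 9.47 and 9.82 in NOD/ShiLtJ, against 8.70, 8.96 and 9.21 in C57BL/6J. The strains did not overlap in whole brain or forebrain. They overlapped in hindbrain, where NOD/ShiLtJ mice DD678 (9.64) and DD656 (9.83) read below C57BL/6J mouse BB701 (9.88). The hindbrains of DD678 and BB701 were among those with the most cerebellar transcripts. Fitted differences were 0.66 ± 0.09 (SE, 1.58-fold, FDR 3.77e-07) in hindbrain, 0.65 ± 0.09 (FDR 8.01e-08) in whole brain and 0.50 ± 0.09 (FDR 1.95e-05) in forebrain.

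Aldh1l1 alone of the 10 was lower in NOD/ShiLtJ at the threshold in all 3 regions. It had 8.64, 8.79 and 8.93 in NOD/ShiLtJ hindbrains, against 8.85, 9.01 and 9.18 in C57BL/6J hindbrains. In forebrain it had 8.22, 8.59 and 8.70 in NOD/ShiLtJ, against 8.72, 8.75 and 8.91 in C57BL/6J. Gfap above and Aldh1l1 below were the only ones of the 10 genes whose strains did not overlap, in forebrain (3.49% of all clusters) and in whole brain (3.29%), and no gene of the 10 was without overlap in hindbrain (3.88%). The fitted Aldh1l1 differences were -0.17 ± 0.04 (SE, FDR 0.000269) in hindbrain, -0.22 ± 0.03 (FDR 9.77e-07) in whole brain and -0.22 ± 0.03 (FDR 2.18e-06) in forebrain.

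Itih3 had 9.96, 10.17 and 10.22 in NOD/ShiLtJ hindbrains, against 9.47, 9.88 and 10.12 in C57BL/6J hindbrains. In forebrain it had 8.09, 8.56 and 8.92 in NOD/ShiLtJ, against 7.45, 7.65 and 8.23 in C57BL/6J. The strains overlapped slightly in both regions. Its fitted difference was 0.33 ± 0.12 (SE, FDR 0.0387) in hindbrain, 0.60 ± 0.11 (FDR 5.02e-05) in whole brain and 0.85 ± 0.12 (1.80-fold, FDR 1.61e-07) in forebrain. S100b differed by 0.23 ± 0.05 (SE, FDR 0.000845), 0.21 ± 0.05 (FDR 0.000745) and 0.18 ± 0.05 (FDR 0.00589) in the same order of regions, and Gja1 by 0.13 ± 0.05 (FDR 0.027), 0.11 ± 0.04 (FDR 0.046) and 0.16 ± 0.04 (FDR 0.00304).

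Among the remaining genes Aqp4 passed in hindbrain, where it was higher in NOD/ShiLtJ by 0.22 ± 0.06 (SE, FDR 0.00324), and had 0.13 ± 0.05 (FDR 0.0584) in whole brain and 0.12 ± 0.05 (FDR 0.0797) in forebrain. Slc1a3 passed in forebrain, lower in NOD/ShiLtJ by 0.15 ± 0.04 (SE, FDR 0.00389), and Slc1a2 in hindbrain, lower by 0.10 ± 0.03 (FDR 0.0122). The strain dependence of the regional difference did not pass for any of these 3 genes. Agt, with the highest regional ratio, had strain differences of -0.10 ± 0.15 (SE, FDR 0.448) in hindbrain and 0.30 ± 0.14 (FDR 0.0941) in forebrain. Gjb6 had 0.02 ± 0.07 (SE, FDR 0.553) in hindbrain and -0.07 ± 0.07 (FDR 0.388) in forebrain.

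**Figure D4:**
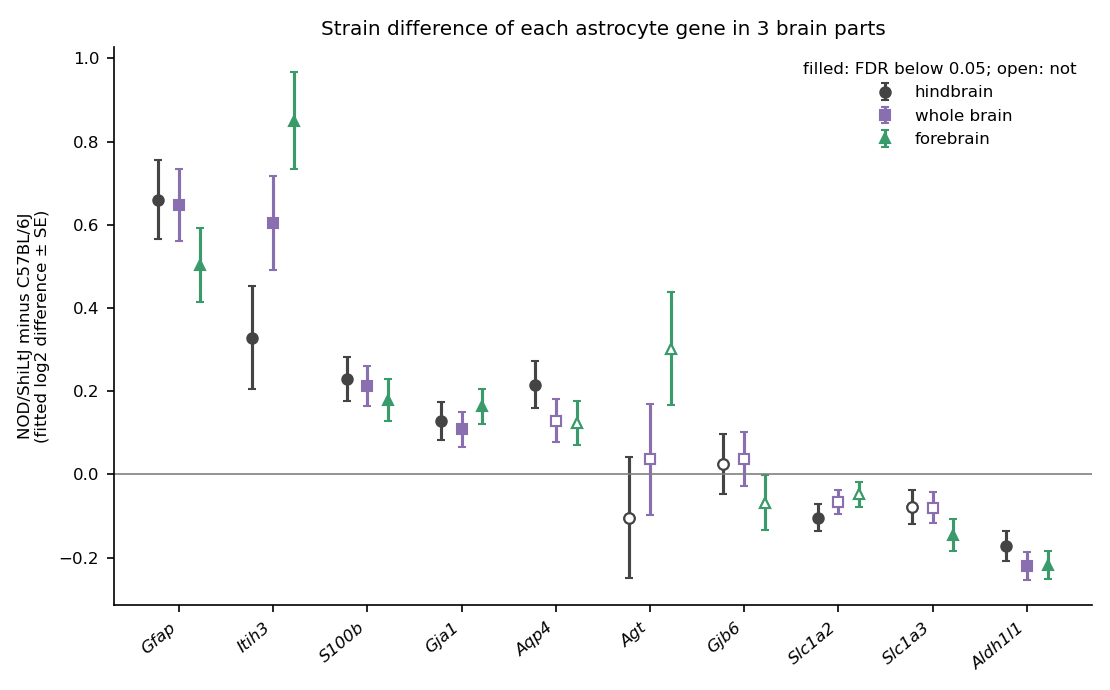
NOD/ShiLtJ minus C57BL/6J (fitted log2 difference, 1.1ST) for the 10 astrocyte genes in hindbrain, whole brain and forebrain, with SE bars (8 mice per strain). Gfap is above 0 in all 3 regions (0.66, 0.65 and 0.50) and Aldh1l1 below 0 in all 3 (-0.17, -0.22 and -0.22).

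Strain differences of similar or larger size were found in other listed astrocyte genes. Kcnj10 was higher in NOD/ShiLtJ by 0.55 ± 0.07 (SE) in hindbrain and 0.71 ± 0.06 in forebrain. Serpina3n, a protease inhibitor that rises in reactive astrocytes, was higher by 1.13 ± 0.08 (SE) and 1.27 ± 0.08, and Synm (synemin), a filament partner of Gfap, by 0.15 ± 0.05 and 0.37 ± 0.05. Lower in NOD/ShiLtJ were Crym, a thyroid hormone binding protein, with differences of -2.16 ± 0.21 (SE) in hindbrain and -2.46 ± 0.20 in forebrain, and Cldn10, with -0.54 ± 0.05 and -0.57 ± 0.05.

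As whole lists, the reactive genes were split, with 6 of 33 higher and 5 lower in NOD/ShiLtJ hindbrains and 5 higher and 7 lower in forebrains. Of all clusters, 11.8% were called higher and 8.69% lower in hindbrain, and 8.98% and 8.76% in forebrain. The reactive list holds Gfap, and the metabolism list that follows holds Aldh1l1. The genes of folate and energy metabolism had 4 of 21 higher and 3 lower in hindbrain, and 1 higher and 10 lower in forebrain. Of 11 oligodendrocyte markers 5 were higher in NOD/ShiLtJ in hindbrain and 3 in forebrain, with none lower. Of 12 microglial markers 5 were higher and 3 lower in hindbrain. Of 13 endothelial markers 1 was higher and 3 lower in either region.

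Whether the regional difference itself depended on strain was tested as an interaction. None of the 10 genes passed for hindbrain against forebrain (limma, FDR below 0.05), where 2.29% of all clusters did, and 2 of the 10, Itih3 and Agt, had an unadjusted p under 0.05, as did 13.1% of all clusters. For Itih3 the difference between hindbrain and forebrain was smaller in NOD/ShiLtJ than in C57BL/6J by 0.52 ± 0.16 (SE, FDR 0.072), and for Agt by 0.41 ± 0.19 (FDR 0.286). The Itih3 interaction passed in 6 of 30 alternatives, among them the fit without the whole brain array of DD656 (-0.55, FDR 0.0371). In either strain on its own, 8 of the 10 genes were higher and 2 lower in hindbrain than in forebrain, against 24.4% of all clusters higher and 16.5% lower in NOD/ShiLtJ and 22% higher and 17.9% lower in C57BL/6J. For whole brain against forebrain none of the 10 passed, nor did any of the 28310 clusters (0%), of which 1582 (5.59%) had an unadjusted p under 0.05.

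Between clozapine and vehicle mice none of the 10 genes passed over the 3 regions (limma, FDR below 0.05), while 2.92% of all clusters did. The median difference was 0.00 for the 10 genes. Gjb6 came nearest, with a fitted difference of 0.13 ± 0.04 (SE, FDR 0.0672). It had 9.58, 9.83 and 9.98 in clozapine hindbrains, against 9.68, 9.88 and 9.96 in vehicle hindbrains (8 mice each), and 9.32, 9.40 and 9.79 in clozapine whole brains, against 9.04, 9.27 and 9.52 in vehicle whole brains. In forebrain it had 8.98, 9.23 and 9.48 in clozapine mice, against 8.86, 9.02 and 9.30 in vehicle mice. The 2 treatments overlapped in all 3 regions, and whether the drug difference of Gjb6 depended on region was not tested.

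Aldh1l1 differed between clozapine and vehicle by 0.05 ± 0.02 (SE, FDR 0.144), and it and Gjb6 were the 2 of the 10 genes with an unadjusted p under 0.05, as were 14.5% of all clusters. Slc1a3 had a fitted difference of 0.02 ± 0.02 (SE, FDR 0.618). Among hindbrain arrays alone it was higher in clozapine mice by 0.20 ± 0.06 (SE, FDR 0.358). The 4 hindbrains with the most cerebellar transcripts were all from clozapine mice. Without those 4 mice, hindbrain Slc1a3 averaged 10.89 ± 0.08 in clozapine mice (SD, n = 4) and 10.77 ± 0.11 in vehicle mice (SD, n = 8). The clozapine mice left were BB685, BB702 and BB703 (C57BL/6J) and DD675 (NOD/ShiLtJ), so strain was not balanced between these treatment groups. Gfap differed by -0.05 ± 0.05 (SE, FDR 0.584), Agt by 0.04 ± 0.08 (FDR 0.726) and Slc1a2 by 0.00 ± 0.02 (FDR 0.758). In the test of whether the drug difference depended on strain none of the 10 genes passed, and 0.0106% of all clusters did (3 of 28310).

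Of the listed genes outside the 10 a few passed for clozapine, as did 2.92% of all clusters. The study, which had the batch in its model, called no transcript for clozapine at an FDR of about 0.05. All 4 hindbrains with the most cerebellar transcripts came from clozapine mice, and the part of that tissue in the calls below was not tested. Fkbp5, a glucocorticoid-responsive co-chaperone, was higher by 0.58 ± 0.09 (SE, FDR 0.00032), Synm by 0.19 ± 0.03, F3 (tissue factor) by 0.18 ± 0.04, Htra1, a secreted protease, by 0.13 ± 0.03 and Slc2a1, the glucose transporter of brain endothelium, by 0.16 ± 0.04. The transcription regulators Id3 and Hes5 were lower by 0.25 ± 0.06 (SE) and 0.21 ± 0.05, and the glutamine transporter Slc38a5 by 0.18 ± 0.04. Of 13 endothelial and mural markers 1 was higher and 4 were lower in clozapine mice.

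How the genes varied together was described by correlation over the 48 arrays, which share the regions, strains and mice. The 45 pairs had a median Pearson r of 0.59, with 28 above 0 and a range of -0.87 to 0.97. Aqp4 and S100b went most closely together (r = 0.97), followed by Aqp4 and Gja1 (0.94) and by Itih3 with S100b and with Agt (both 0.93). Slc1a2 was opposed to S100b (-0.87) and to Aqp4 (-0.87).

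After the mean of each strain and region was removed, the median r was 0.41, with 30 of 45 pairs above 0. Agt and Itih3 (0.82), Aqp4 and S100b (0.81) and Aqp4 and Gja1 (0.75) still varied together among mice of 1 strain and region. Slc1a2 and Slc1a3 correlated at 0.54 over all arrays and at -0.22 within strain and region. The lowest value within strain and region was that of Slc1a3 and Gfap, at -0.45.

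**Figure D5:**
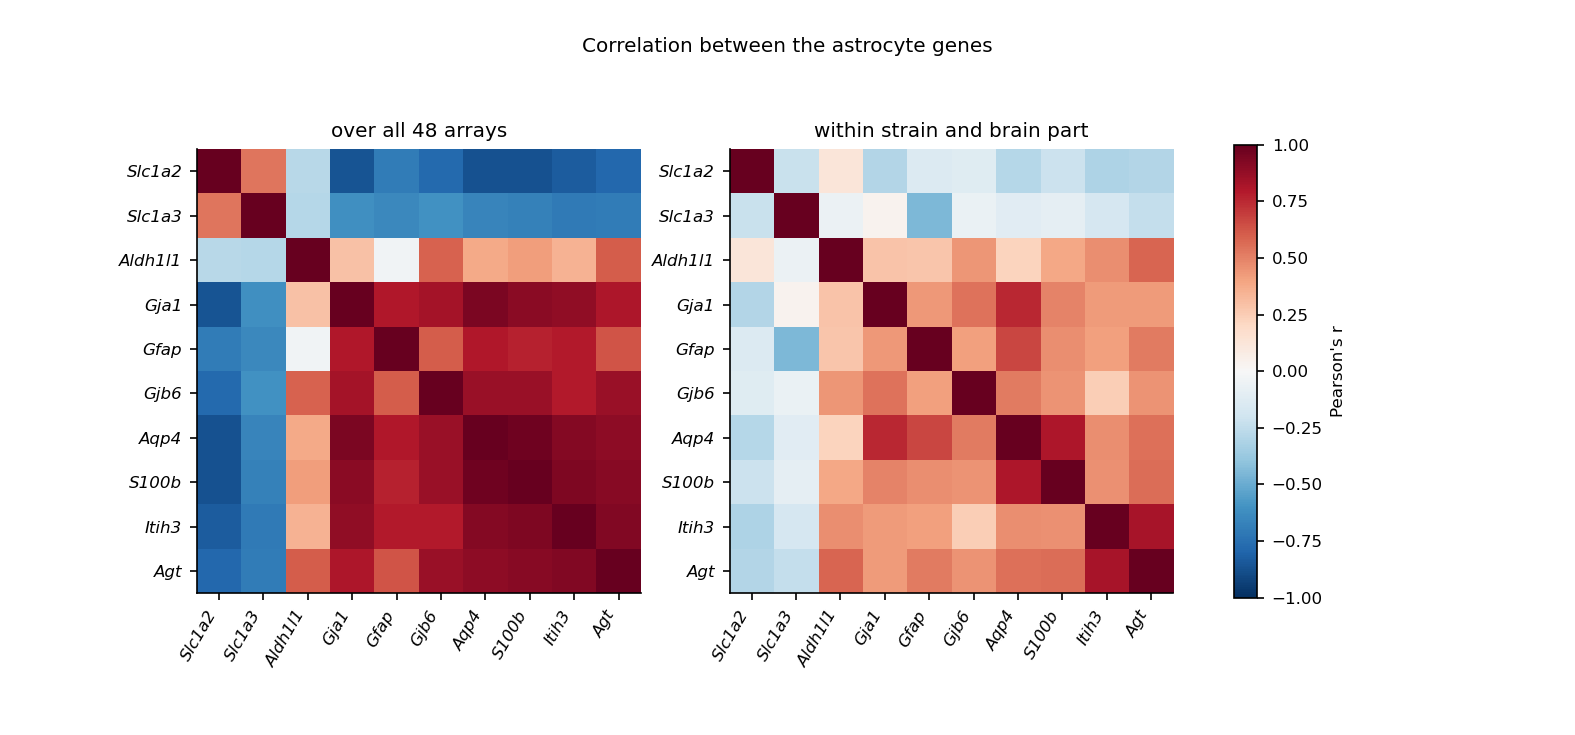
Pearson correlation between the 10 astrocyte genes over 48 arrays (1.1ST), on the deposited values and after the mean of each strain and region was removed; colour runs from -1 to 1. Slc1a2 and Slc1a3 stand apart on the deposited values, at -0.87 for Slc1a2 with S100b.

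The genes of the arrays whose values were most like each of the 10 were named by Pearson r over the 48 arrays. Nearest to Agt were Pcbd1 (0.98), AW551984 (0.98) and Slc17a6 (0.98), the vesicular glutamate transporter of brainstem and thalamic neurons. Nearest to Itih3 were Gpx3, Sparc and Igsf1 (0.97 each), and nearest to S100b were Klk6 (0.98), a protease of oligodendrocytes, Clcn5 (0.98) and Aqp4 (0.97). Aqp4 had S100b, Ermp1 and Lgals8 (0.97 each), Gja1 had Aqp4, Lgals8 and Inpp5f (0.94 each), and Gjb6 had Sdc4 (0.96), Mtmr2 (0.94) and Selenop (0.93). Gfap had Thbs2, Padi2 (0.93 each) and Rnase1 (0.92), and Aldh1l1 had Uqcc1, Sdc2 (0.89 each) and Pygb (0.88).

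Slc1a2 was most like Rab40b, Pde2a (0.95 each) and Pak6 (0.94), which were lower in hindbrain than in forebrain by 1.31 ± 0.09, 1.29 ± 0.08 and 1.05 ± 0.07 (SE). These differences follow from the choice of genes over the same arrays. Slc1a3 was most like Negr1 (0.85), Sla (0.84) and Exph5 (0.83), lower by 0.36 ± 0.05, 0.85 ± 0.10 and 1.82 ± 0.19 (SE).

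The formats read the same RNA and are not independent replicates. Over the 48 samples their values correlated at 0.87 (Aldh1l1) to 0.99 (Agt and Itih3), and the slope of 1.0ST on 1.1ST was 0.76 (Aldh1l1) to 0.94 (Gja1). Within strain and region the correlation was 0.92 for Aqp4 and 0.91 for Agt, Itih3 and Gfap, and 0.49 for Aldh1l1.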

How the data were processed

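Total RNA of 48 samples was measured on Affymetrix Mouse Gene 1.1ST and 1.0ST arrays. The authors deposited log2 intensity values normalized by RMA, made with Affymetrix Expression Console 1.1; array medians were 6.28 to 6.61 (1.1ST) and 8.14 to 8.23 (1.0ST), and depth does not apply, so the number of arrays limits the precision. Groups came from strain, treatment and part of brain in the labels; same-mouse samples were paired by mouse ID. A limma fit (limma 3.58.1, statmod 1.5.0, R 4.3.3) had strain by region, treatment and 5 surrogate variables, each from the 1000 most correlated transcripts, with the mouse as a random block (correlation 0.031; deviations of hindbrain and forebrain of 1 mouse correlated at 0.095 on average). All clusters were tested two-sided, and FDR followed the study's formula, with calls below 0.05. Array batch was not in the labels and was not used. The mixed model used lme4 1.1.37 and lmerTest 3.1.3. Scripts were tested on simulated data. Clusters were named from GEO's platform annotation (21207 with 1 symbol, 1867 with several, 5236 with none), and sequences came from RefSeq. The members and lists were chosen with earlier results of these data known; from each list up to 3 called genes per direction, and relatives of the 10 genes, were named by rule. Replicates were separate mice.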

Additional observations from a re-analysis of the deposited data

Results flagged for a closer look

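Among 120 sets of 4 mice (10 genes in each strain, treatment and region on 1.1ST), 10 held 1 mouse so far from the other 3 that its gap to them passed the critical value of Dixon's test (gap over range); chance gives about 1 in 20. Agt read 9.93 in the whole brain of DD676 (NOD/ShiLtJ, clozapine), against 10.08 to 10.09 in the other 3 mice, 9.34 in the forebrain of BB703 (C57BL/6J, clozapine), against 8.46 to 8.51, and 10.71 in the whole brain of DD656 (NOD/ShiLtJ, vehicle), against 9.94 to 10.01. Aldh1l1 was also high in that BB703 forebrain, at 8.91 against 8.75 to 8.77. Gfap was also high in that DD656 whole brain, at 10.15 against 9.71 to 9.75.

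Slc1a3 was low in both regions of BB707 (C57BL/6J, vehicle), at 10.60 in hindbrain against 10.86 to 10.88, and at 11.01 in forebrain against 11.21 to 11.24. Slc1a3 was high in the hindbrain of DD657 (NOD/ShiLtJ, vehicle), at 10.86 against 10.70 to 10.71. Gfap was low in the hindbrain of DD678 (NOD/ShiLtJ, clozapine), at 9.64 against 10.10 to 10.16, and in the forebrain of DD677 (NOD/ShiLtJ, vehicle), at 9.24 against 9.48 to 9.52. On 1.0ST the same mouse was the extreme one of its set in 9 of the 10, the exception being Slc1a3 in DD657.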

How the results depend on the processing

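Of the results of single genes under all alternatives, 2852 kept their side of the threshold, 93 lost a call and 55 gained one. None (0) changed direction where the main fit or the alternative made a call. Results called in neither could change sign and still count among the 2852. Hindbrain against forebrain kept 8 to 10 calls and hindbrain against whole brain 9 to 10 without each mouse in turn. Whole brain against forebrain (8 calls) had 4 on 1.0ST, 5 without the 4 hindbrain arrays high in cerebellar markers, and 4 to 9 without each mouse (4 without BB708, DD675 or DD676). The strain comparison in forebrain (6 calls) had 3 in vehicle mice alone and 5 to 8 without each mouse; in hindbrain (7 calls) 3 in vehicle mice alone, 4 on 1.0ST with no surrogate variables and 5 to 8 without each mouse; in whole brain (5 calls) 3 from whole brain arrays alone and 4 to 8 without each mouse (8 without BB707). The strain dependence of hindbrain minus forebrain (0 calls) had 2 with surrogate variables not refined (Itih3, Agt), 1 without the whole brain array of DD656, 1 in vehicle mice alone and 0 to 1 without each mouse (1 without BB701, BB703 or BB707). Clozapine (0 calls) had 2 with surrogate variables not refined (Gjb6 0.13, FDR 0.0258; Slc1a3 0.08, FDR 0.0307) and 0 to 1 without each mouse (Gjb6, without BB686, BB702 or BB703). With no replicate block the counts were those of the random block, 8 for whole brain against forebrain; with the mouse as a fixed block they were 10, 6 and 10 for the 3 regional comparisons, and both interactions with strain stayed at 0. The alternatives on 1.0ST with no surrogate variables and without the 4 hindbrains were chosen after seeing the data. The mixed model was not run for the strain dependence of clozapine, and no gene had another cluster to try. The cause of these shifts was not tested.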
